A study of Mus musculus with 16 samples.

Results

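Collagen chains are described here as the genes whose symbol is Col, a type number, the letter a and a chain number. This rule took 44 of the 31053 genes in the deposited table, without use of any measured value. By type, 11 are fibrillar chains, 6 are basement membrane chains (type IV), 9 are FACIT chains (fibril-associated collagens with interrupted triple helices) and 18 belong to other types, among them 6 beaded filament chains (type VI). mRNA was sequenced in 16 samples of C2C12, an immortal mouse myoblast line that fuses into myotubes, with 4 samples in each of 4 groups. These were myoblasts and myotubes of the wild type (WT) and the same stages of a Fam134b KO line (KO below). All samples share the C2C12 background and growth in DMEM with 10% FBS, in which confluent cells differentiate on their own. The KO line was made by lentiviral transduction with Cas9 and guide RNAs against Fam134b, followed by selection with blasticidin and neomycin. The sources used here do not state whether it is 1 clone, so differences between the KO and WT lines cannot be told apart from differences between a clone and its parent line. The stage labels are those of the sample titles, which name the samples undifferentiated and differentiated, and the titles also give the genotype, which another label lists as unknown. The samples are called biological replicates, without a source for each, so p-values cover the spread between these samples only.

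A collagen molecule is a triple helix of 3 chains, made in the endoplasmic reticulum (ER), where prolines and lysines are hydroxylated and the chaperone Hsp47 (Serpinh1) holds the helix before large transport carriers take it to the Golgi. Fibrillar collagens I, III and V are trimmed outside the cell, assemble into fibrils and are cross-linked by lysyl oxidases, whereas type IV forms a network in the basement membrane that surrounds each muscle fibre and type VI forms beaded filaments that join fibrils and basement membrane. Fam134b, also called Retreg1, encodes an ER-phagy receptor, a membrane protein that hands ER fragments to autophagosomes, and with the chaperone calnexin (Canx) it is known to route misfolded procollagen to lysosomes.

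Each library held between 1484750 and 3287461 reads on genes, and the 2 shallowest libraries were KO myotubes 4 and 2. A floor of 3 reads corresponded to a normalized count (reads divided by a factor of the sample, so that samples can be compared) of 2.49 to 5.99. Fam134b itself lay between 150 and 251 in WT myoblasts, 146 and 287 in WT myotubes, 23.4 and 35.6 in KO myoblasts and 28 and 56.9 in KO myotubes, so KO and WT did not overlap at either stage. The summed level of 11 myotube markers was 2120 to 3318 in myoblasts and 26278 to 40802 in myotubes of the WT line, and 126 to 192 and 11980 to 16117 in those of the KO line. All 11 markers rose with differentiation in both lines, and relative to WT 10 of them were lower in KO myoblasts and 6 in KO myotubes. The 6 myoblast markers summed to 765 to 1348 in WT myoblasts and 2566.5 to 4653 in WT myotubes. In KO they summed to 288 to 377 in myoblasts and 1296 to 2142 in myotubes. Of the 5 tested, 3 were lower in KO myoblasts and 2 in KO myotubes, and 0 were higher at either stage. Over all tested genes 8.5% and 13.7% were called lower. Myotube and myoblast markers thus differed between the genotypes at the same named stage, and their part in the collagen differences was not tested. The 10 markers of fibroblasts, cells that make much collagen, summed to 191 to 233, 160 to 278, 594 to 966 and 474 to 540 in the same order. In KO myoblasts most of that sum was Ly6a, with a mean of 691, while Thy1, Lum and Dpt stayed below a mean of 1 in each group. Of the 5 fibroblast markers tested, 1 was higher and 1 lower in KO than in WT myoblasts. In KO myotubes 2 were higher and 1 lower. Over all tested genes 7.26% were called higher and 8.5% lower in KO myoblasts, and 9.74% and 13.7% in KO myotubes. Tendon markers summed to 442 to 926 over the 16 samples, almost all of it Scx with Tnmd and Thbs4 at 0. Markers of chondrocytes and osteoblasts summed to 439 to 495 in WT myoblasts and 295 to 492 in WT myotubes. In KO they summed to 658 to 1103 in myoblasts, above all WT myoblasts, and 381 to 885 in myotubes. Of the 2 markers tested in each of these lists, 1 was higher and 0 lower in KO at both stages. The part of these markers in the collagen differences was not tested. Markers of endothelial cells summed to at most 1.94 in any sample, those of adipocytes to at most 26.2 and those of immune cells to at most 25.0. Fewer cells of a type and less RNA per cell cannot be told apart in these bulk samples.

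Among the tested chains 3 pairs are neighbours in the mouse genome (mm10 per the labels; GENCODE M21 positions). Col4a1 and Col4a2 lie head to head on chromosome 8, from 11198423 to 11312826 on the minus strand and from 11312805 to 11449287 on the plus strand, so that their annotated first exons share 22 bases. Col6a2 (chromosome 10, 76595762 to 76623630) and Col6a1 (76708792 to 76726168) lie on the same strand 85161 bases apart. Col3a1 (chromosome 1, 45311538 to 45349706) and Col5a2 (45374321 to 45503282) lie on opposite strands 24614 bases apart. Promoter windows, the 250 bases before the start site in RefSeq on GRCm38.p6, were found for 35 of the 44 chains and 18 of the 21 tested chains. The windows below belong to the 3 chains whose change on differentiation differed between the lines (Col5a3, Col6a2 and Col8a1) and to Col3a1, a fibrillar chain that rose in both. Capitals mark CCAAT, the GC box GGGCGG, the TATA motif TATAAA and the E-box CAGCTG, the type of site bound by myogenic factors, each on either strand.
Col5a3 (chr9:20815068-20815317, minus strand): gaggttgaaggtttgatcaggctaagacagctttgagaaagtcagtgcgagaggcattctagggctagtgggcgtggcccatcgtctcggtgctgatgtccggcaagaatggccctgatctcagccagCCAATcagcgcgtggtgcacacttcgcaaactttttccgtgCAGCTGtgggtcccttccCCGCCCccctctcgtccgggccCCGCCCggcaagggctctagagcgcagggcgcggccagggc
Col6a2 (chr10:76623631-76623880, minus strand): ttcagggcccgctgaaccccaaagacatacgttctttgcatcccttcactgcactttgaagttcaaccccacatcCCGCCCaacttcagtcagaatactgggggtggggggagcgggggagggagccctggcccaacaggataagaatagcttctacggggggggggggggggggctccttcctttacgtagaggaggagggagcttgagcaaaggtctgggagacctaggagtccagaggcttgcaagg
Col8a1 (chr16:57754738-57754987, minus strand): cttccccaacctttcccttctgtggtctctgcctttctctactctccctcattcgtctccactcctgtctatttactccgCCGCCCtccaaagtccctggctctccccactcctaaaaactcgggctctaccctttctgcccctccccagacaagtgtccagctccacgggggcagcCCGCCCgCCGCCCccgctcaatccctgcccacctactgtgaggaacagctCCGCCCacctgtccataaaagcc
Col3a1 (chr1:45311288-45311537, plus strand): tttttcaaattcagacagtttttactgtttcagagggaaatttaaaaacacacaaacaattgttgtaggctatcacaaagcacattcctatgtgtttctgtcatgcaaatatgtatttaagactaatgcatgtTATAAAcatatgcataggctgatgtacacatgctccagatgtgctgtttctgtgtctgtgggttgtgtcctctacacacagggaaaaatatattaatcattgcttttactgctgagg
The Col5a3 window held 1 CCAAT, 1 E-box and 2 GC boxes, the Col6a2 window 1 GC box, the Col8a1 window 4 GC boxes and the Col3a1 window a single TATA motif. GC boxes stood in 13 of the 18 windows of tested chains, against 32.7% of all 32851 promoter windows of this length, and CCAAT in 9 of 18 against 33.9%. TATAAA was found in 2 of 18 (12.4% of all windows) and CAGCTG in 3 of 18, in Col5a3, Col16a1 and Col24a1 (13.0% of all windows). Each tested chain was counted once, by its most upstream start, and had passed the expression filter. The windows of all genes were counted with neither step, so the 2 sets are unlike and their shares were not tested against each other. These counts describe letters in a fixed window, and no match was tested for binding.

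Summed collagen transcripts were higher in myotubes than in myoblasts of both lines, and their means were higher in KO than in WT cells at both stages. The 44 chains summed to 7105 ± 1873 normalized counts in WT myoblasts, 24866 ± 6393 in WT myotubes, 16034 ± 6850 in KO myoblasts and 40927 ± 13595 in KO myotubes (SD, n = 4), and the fibrillar chains made up most of each sum. Among the fibrillar, basement membrane, FACIT and beaded filament sums the last differed most in the ratio of group means between stages and between lines, going from 145 ± 42.1 as myoblasts to 1240 ± 372 as myotubes in WT and from 930 ± 332 to 4173 ± 1495 in KO. The basement membrane sum stood at 536 ± 155, 968 ± 105, 672 ± 212 and 875 ± 256 for myoblasts and myotubes of WT and then of KO. FACIT chains summed to 169 ± 37.4, 292 ± 111, 411 ± 107 and 816 ± 230 in the same order. Ranges of KO and WT samples did not overlap for the FACIT sum at either stage, whereas they overlapped at both stages for the basement membrane sum and for the fibrillar sum.

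**Figure D1:**
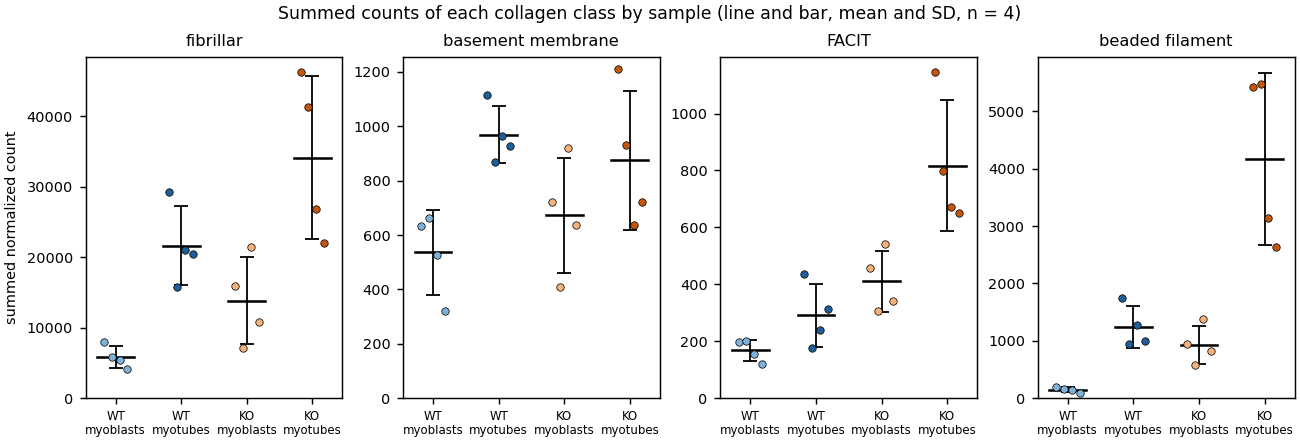
Summed normalized counts (y axis, linear from 0) of the fibrillar, basement membrane, FACIT and beaded filament chains in each of the 16 samples (points), with the mean and SD of each group of 4. The KO myotubes stand highest in the fibrillar, FACIT and beaded filament panels, with means of 34153, 816 and 4173, and the basement membrane panel shows both KO groups overlapping with each other and with WT.

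Of the 44 chains, 21 passed the filter (10 normalized counts or more in 4 or more samples) and were tested among 10767 genes with limma (all adjusted p below are Benjamini-Hochberg adjusted over these genes, and a chain was called at an adjusted p under 0.05). They were 9 of 11 fibrillar, 3 of 6 basement membrane, 2 of 9 FACIT and 7 of 18 other chains. On differentiation of WT cells 14 of the 21 rose, against 13.8% of all tested genes called higher, and 0 fell, against 9.16% called lower. Over all tested genes these calls were 1488 higher and 986 lower, and 1418 and 1434 after quantile normalization. In this comparison 0 chains were lower at an unadjusted p under 0.05 in the limma fit, and 0 were called lower by limma voom on the recovered reads. In KO cells 11 rose (background 17.3%) and Col7a1 alone fell (16.1%). Between the lines, 8 chains were higher in KO than in WT myoblasts (7.26%) and 2 lower (8.5%). Leaving out 1 sample took these to 4 to 9 higher (4 without WT myoblasts 3 or 4 or KO myoblasts 1 or 3) and 1 to 3 lower (1 without WT myoblasts 1 or 2 or KO myoblasts 1 or 2). In myotubes 9 were higher in KO (9.74%) and 5 lower (13.7%), with 3 lower when WT myotubes 1 was left out. The log2 change on differentiation differed between the lines for 3 chains, 1 with a larger fold rise in KO (1.97%) and 2 with a smaller fold rise (1.48%). The median log2 fold change over the 21 chains was 1.21 in WT and 0.93 in KO differentiation, against -0.01 and -0.02 over all tested genes, and 0.75 and 0.66 for KO against WT myoblasts and myotubes, against -0.01 and -0.07. With Col24a1, which had no read in WT myoblasts, set at its lower bound the first of these medians was 1.13, and without Col24a1 the third was 0.89. The filter admits a chain that is high in 1 group only, so these medians describe the tested chains and not all 44. Of the called chains, Col24a1 reached 10 in the KO myotubes alone, Col8a2 passed only through WT myotubes and Col11a1 only through WT samples, the groups where each was high. Leaving such calls out, 10 chains rose in KO differentiation, 1 was lower in KO myoblasts, and 8 were higher and 3 lower in KO myotubes.

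**Figure D2:**
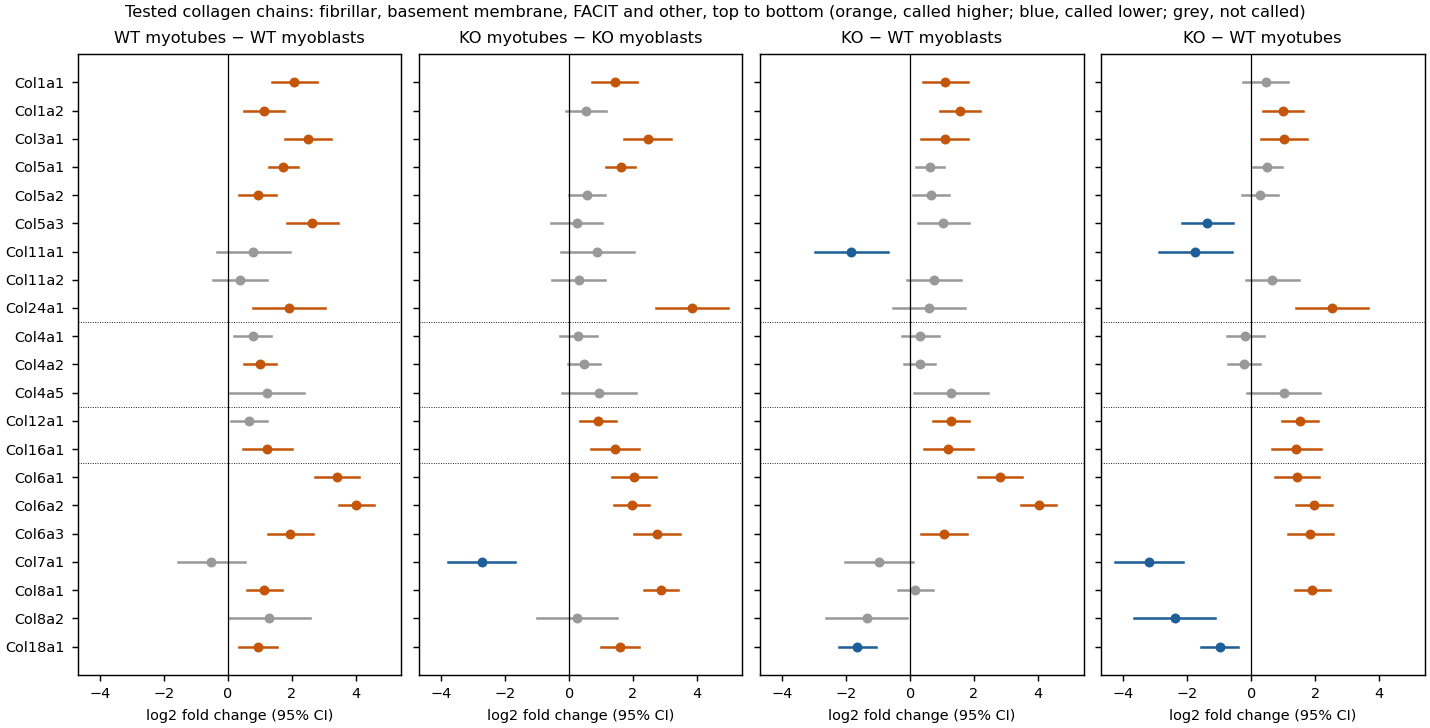
Fitted log2 fold changes of the 21 tested chains (x axis, point and 95% confidence interval from limma) in WT differentiation, KO differentiation, KO against WT myoblasts and KO against WT myotubes, with dotted lines between fibrillar, basement membrane, FACIT and other chains. Called chains are orange (14, 11, 8 and 9 higher) or blue (0, 1, 2 and 5 lower), and the 3 basement membrane chains are grey in all panels except Col4a2 in WT differentiation.

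Type I collagen is a heterotrimer of Col1a1 and Col1a2 chains and the main fibrillar collagen of tendon and muscle connective tissue, and type III is a homotrimer of Col3a1 that runs in the same fibrils. Col1a1 stood at 4583, 2559.6, 2912 and 2256 in the 4 WT myoblast samples and at 16226, 9984, 12190.4 and 12206 in WT myotubes. In KO cells it stood at 8595, 3013, 11534 and 5481 in myoblasts and 24699.6, 21874, 12995 and 12183 in myotubes. Each myotube group lay above its myoblast group, while KO and WT overlapped at both stages. Col1a1 rose 4.2-fold in WT (log2 2.07 ± 0.34 SE, adjusted p = 1.65e-04) and 2.69-fold in KO (log2 1.43 ± 0.34, adjusted p = 0.00286). It was 2.15-fold higher in KO than in WT myoblasts (adjusted p = 0.0294), and in myotubes the difference did not pass the test (log2 0.46 ± 0.34, adjusted p = 0.363). For Col1a2 the WT samples held 1366, 1480.4, 1065 and 940.2 as myoblasts and 3821, 1465, 2957 and 2679.9 as myotubes, and the KO samples 4153, 2365, 5419 and 2975 and 6839, 5816, 5842 and 2915. All KO myoblasts lay above all WT myoblasts, and 1 WT myotube sample fell within the WT myoblast range. Col1a2 rose 2.16-fold in WT (adjusted p = 0.0107), its change in KO did not pass (log2 0.52 ± 0.30, adjusted p = 0.187), and it was higher in KO at both stages, 2.97-fold in myoblasts (adjusted p = 6.43e-04) and 1.98-fold in myotubes (adjusted p = 0.0214). The difference between the lines in the change of Col1a2 did not pass (adjusted p = 0.505). Col3a1, whose promoter window is printed above, stood at 920.0, 691, 653 and 419 in WT myoblasts, 5683, 2359, 3751 and 3528 in WT myotubes, 1738, 696, 2429 and 1176 in KO myoblasts and 10904, 10614, 5644 and 4749.8 in KO myotubes. It rose 5.64-fold in WT and 5.47-fold in KO, with fitted log2 changes that differed by -0.04 ± 0.49 (SE). Its excess in KO was 2.11-fold in myoblasts (adjusted p = 0.0385) and 2.04-fold in myotubes (adjusted p = 0.0363), with overlapping samples at both stages. The calls of Col1a1 and Col3a1 between KO and WT myoblasts are the weak ones here: without KO myoblasts 3 their log2 fold changes were 0.82 (adjusted p = 0.133) and 0.80 (adjusted p = 0.158), and each was also lost without WT myoblasts 2, 3 or 4 or KO myoblasts 1, with adjusted p of 0.0669 to 0.146. Col3a1 also lost that call without KO myoblasts 4 (adjusted p = 0.0574). In myotubes the Col3a1 call was lost without WT myotubes 2, 3 or 4 or KO myotubes 1 or 2 (adjusted p 0.0698 to 0.114) and the Col1a2 call without WT myotubes 2 or KO myotubes 1 or 3 (0.0521 to 0.0841). Without WT myotubes 1 the rise of Col1a2 in WT had an adjusted p of 0.0509. Without a filter on low counts the calls of Col1a1 and Col3a1 in myoblasts and of Col3a1 in myotubes had adjusted p of 0.0619, 0.061 and 0.0563, and after quantile normalization those of Col1a1 in myoblasts and of Col3a1 and Col1a2 in myotubes had 0.0537, 0.131 and 0.0562. The myotube call of Col3a1 was also lost on scaling to equal totals (0.0515) and without both shallowest libraries (0.0575).

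**Figure D3:**
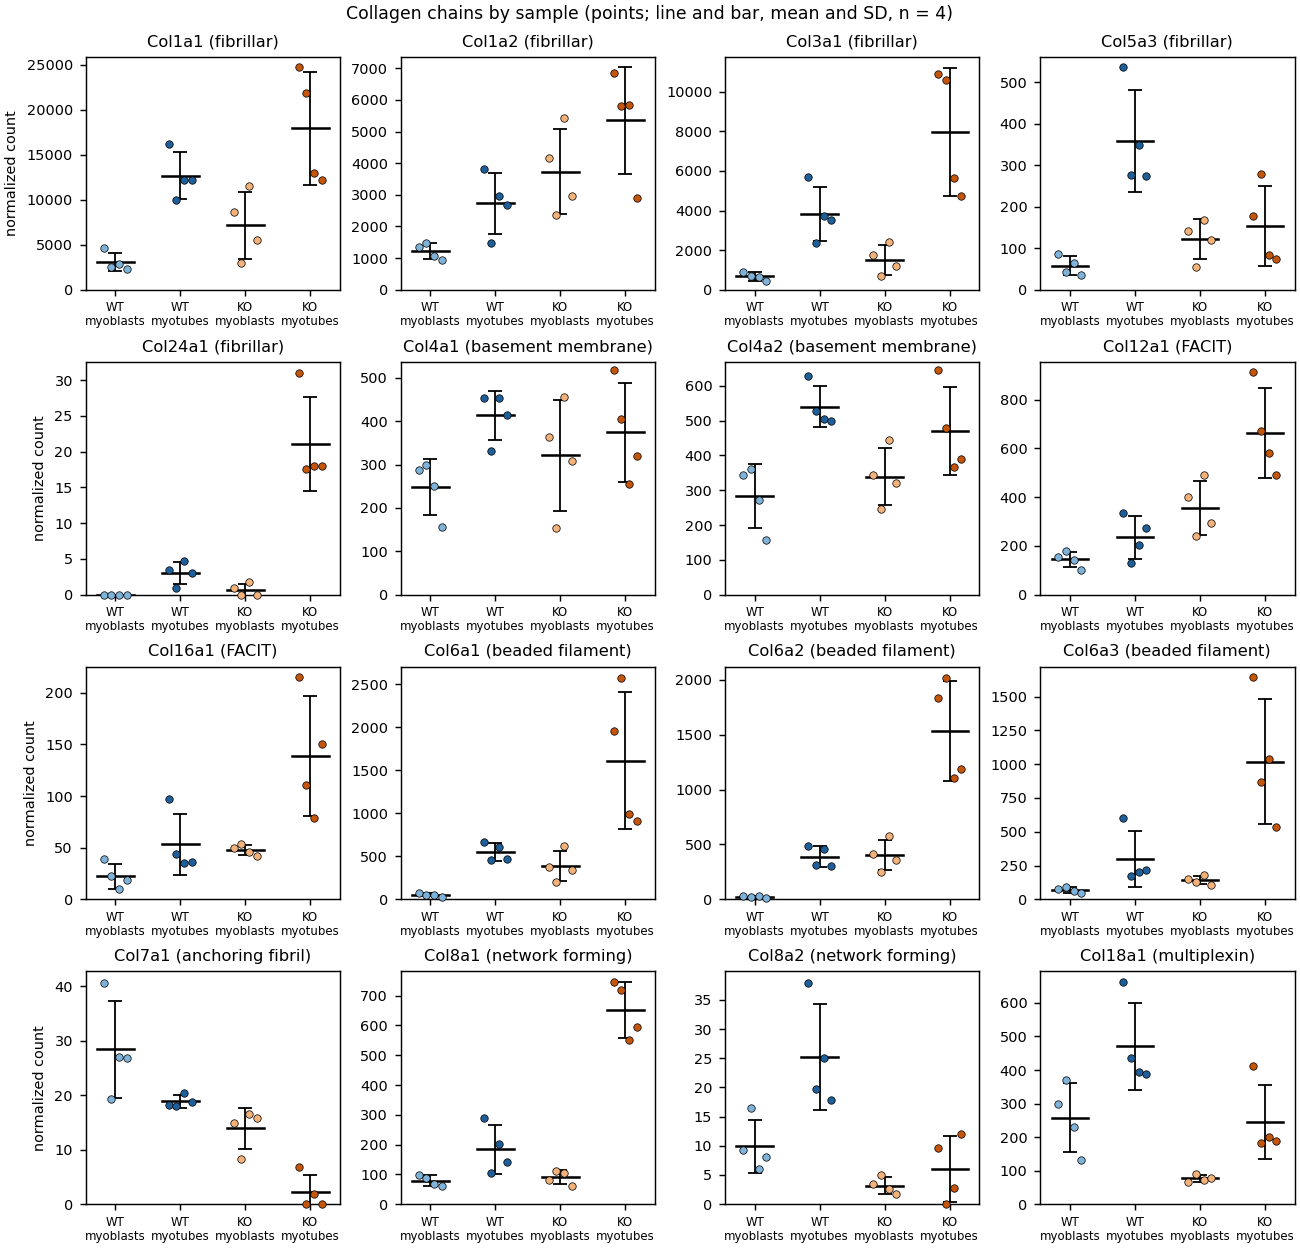
Normalized counts (y axes, linear from 0, each panel with its own scale) of 16 collagen chains in the 4 groups, each point 1 sample, with the mean and SD of 4. Col6a1, Col6a2 and Col8a1 show KO myotubes above all other samples, Col18a1 shows KO myoblasts at 64.7 to 91.3 below all other groups, and Col4a1 and Col4a2 show overlap of KO and WT at both stages.

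Type V collagen co-assembles with type I and limits fibril width. Col5a1 rose 3.32-fold in WT (range 225 to 415 in myoblasts and 918 to 1565 in myotubes, adjusted p = 5.91e-06) and 3.06-fold in KO (403 to 625 and 1189 to 1995, adjusted p = 7.33e-06). It was not called between KO and WT, with adjusted p of 0.0573 in myoblasts and 0.103 in myotubes. Col5a2, the second chain of the common type V trimer, rose 1.89-fold in WT (adjusted p = 0.0191), a call lost without WT myoblasts 3 or 4 or WT myotubes 1 (adjusted p 0.0544 to 0.091). In KO its change did not pass (log2 0.56 ± 0.27, adjusted p = 0.124). Col5a3, a chain of a less common type V trimer, behaved differently in the lines. It stood at 86.7, 43.4, 64 and 36.5 in WT myoblasts and at 535, 276, 349 and 274 in WT myotubes. In KO myoblasts it stood at 143, 55.6, 167 and 120.1 and in KO myotubes at 178, 279, 84.6 and 73.9. The WT groups did not overlap, and of the KO myotubes 2 lay within and 2 above the range of the KO myoblasts. Col5a3 rose 6.23-fold in WT (log2 2.64 ± 0.38, adjusted p = 4.27e-05), and its log2 change in KO was 0.24 ± 0.38 (adjusted p = 0.666). The difference of these changes was -2.40 ± 0.54 on the log2 scale (adjusted p = 0.0148), and Col5a3 was 2.58-fold lower in KO than in WT myotubes (adjusted p = 0.0132). Neither of these 2 results lost its direction or its call when any 1 sample was left out. KO myotubes 2 lay within the WT myotube range. In myoblasts the log2 value of KO against WT was 1.03, which did not pass (adjusted p = 0.0756).

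The other fibrillar chains were sparse. Col11a1, a minor chain of cartilage-type fibrils that also pairs with type V, had lower counts in KO at both stages, and since it passed the filter only through WT samples its tests are not independent of that filter. The counts were 11.1, 12.5, 7.01 and 4.46 in WT myoblasts against 0.87, 0, 4.34 and 3.34 in KO myoblasts (log2 -1.84 ± 0.55, adjusted p = 0.0243). In myotubes they were 28.5, 10.8, 15.8 and 9.91 against 6.78, 2.92, 4.5 and 2.0 (log2 -1.75 ± 0.55, adjusted p = 0.0248). KO and WT did not overlap at either stage, but several of the KO values stand for 5 reads or fewer. In myoblasts the nearest WT and KO values, 4.46 and 4.34, both stand for 5 reads. They are apart only through the factor of the sample. The myoblast call was lost without WT myoblasts 1 or 2 or KO myoblasts 1 or 2 (adjusted p 0.0739 to 0.0922) and the myotube call without WT myotubes 1 or 3 or KO myotubes 4 (0.0599 to 0.0819). With a pseudocount of 5 the log2 value in myoblasts was -0.95 (adjusted p = 0.0384). After quantile normalization neither call held (adjusted p = 0.0796 and 0.0526), and the myotube call was also lost with array weights (0.102) or without both shallowest libraries (0.148). Col24a1, a fibrillar chain known from bone and cornea, had no read in the 4 WT myoblast samples and 3.45, 0.9, 4.65 and 2.97 in WT myotubes, at least 1.06-fold higher against a floor of 3 reads per library. KO myoblasts held 0.87, 0, 1.74 and 0 and KO myotubes 31, 17.5, 18 and 18. That is 73 reads against 3, a ratio of 34.3 with a 95% interval of 11.3 to 170 from counting alone. All KO myotubes lay above all WT myotubes (log2 2.53 ± 0.54, adjusted p = 0.00177), a value of 1.70 with a pseudocount of 5 and 3.62 after quantile normalization. Col24a1 passed the filter only through the KO myotubes, so this test is not independent of the filter. The WT rise passed the test (adjusted p = 0.0155) but not without WT myotubes 3 (0.0542), with a pseudocount of 5 (0.0675) or after quantile normalization (0.303). Col11a2 was tested and not called in any comparison (range 5.79 to 29.2 over the 16 samples). Col27a1 (0 to 11.2) and Col2a1, the main collagen of cartilage (0 to 1.94), did not reach the filter.

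The tested basement membrane chains overlapped between KO and WT at both stages. Type IV collagen of most tissues is a trimer of Col4a1 and Col4a2, encoded by the head-to-head pair described above. Col4a1 stood at 288, 299.9, 250.2 and 156 in WT myoblasts, 453, 332, 454 and 414 in WT myotubes, 365, 154, 456 and 309.5 in KO myoblasts and 519, 404, 256 and 319.7 in KO myotubes. Col4a2 stood at 343, 361, 271 and 157, then 628, 529, 505 and 500.3, then 344, 247, 444 and 321 and last 645, 479, 367 and 389.7 in the same order of groups. For both chains all WT myotubes lay above all WT myoblasts, and the KO groups overlapped with each other and with WT. Col4a2 rose 1.99-fold in WT (log2 1.00 ± 0.24, adjusted p = 0.00443), and Col4a1 missed the threshold (log2 0.77 ± 0.28, adjusted p = 0.0517). In KO cells the log2 changes were 0.28 ± 0.28 for Col4a1 (95% interval -0.30 to 0.86) and 0.46 ± 0.24 for Col4a2 (-0.03 to 0.95). Between KO and WT myotubes they were -0.18 ± 0.28 (-0.76 to 0.40) and -0.23 ± 0.24 (-0.72 to 0.26). Col4a5, a chain of a further type IV trimer found in kidney and other tissues, had 2.77, 1.93, 5.0 and 8.02 in WT myoblasts, 29.4, 6.3, 5.58 and 10.9 in WT myotubes, 13.1, 7.47, 20 and 7.51 in KO myoblasts and 37.8, 48.2, 12.6 and 9.99 in KO myotubes and was not called in any comparison (adjusted p 0.12 to 0.896). Col4a4 (0 to 3.45) and Col4a6 (0 to 8.71) were below the filter, and Col4a3 had no read in any sample.

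FACIT collagens sit on the surface of fibrils and link them to the surrounding matrix. Col12a1, the FACIT of tendon and muscle connective tissue, stood at 155, 178, 142 and 101 in WT myoblasts and 336, 131, 202 and 274 in WT myotubes. KO myoblasts held 401, 242, 491 and 294 and KO myotubes 915, 671, 579 and 489.6. All KO samples lay above all WT samples of the same stage, 2.43-fold in myoblasts (log2 1.28 ± 0.27, adjusted p = 0.00175) and 2.9-fold in myotubes (log2 1.53 ± 0.27, adjusted p = 3.24e-04). With differentiation Col12a1 rose in KO (1.88-fold, adjusted p = 0.0135), a call lost without KO myoblasts 2 or KO myotubes 1 (0.0502 and 0.0545), and in WT it did not pass (log2 0.65 ± 0.27, adjusted p = 0.0873). Col16a1, a second FACIT, had 38.8, 22.2, 10 and 18.7 in WT myoblasts, 97.6, 44.1, 35.3 and 35.7 in WT myotubes, 49.9, 53.1, 46 and 41.7 in KO myoblasts and 215, 111, 79.2 and 149.9 in KO myotubes. It rose 2.33-fold in WT (adjusted p = 0.0203) and 2.7-fold in KO (adjusted p = 0.00487) and was higher in KO by 2.29-fold in myoblasts (adjusted p = 0.0281) and 2.65-fold in myotubes (adjusted p = 0.00821). The WT rise was lost without WT myoblasts 3 or 4 or WT myotubes 1 (0.0515 to 0.102) and the myoblast difference without WT myoblasts 3 or 4 or KO myoblasts 1, 2 or 3 (0.0557 to 0.13), and with limma voom (0.0546). The other 7 FACIT chains were below the filter. Of these Col20a1 had 31 reads in KO myotubes (16.5, 7.3, 3.6 and 9.99) against 2 in WT myotubes and 3 in KO myoblasts, ratios of 20.3 (95% counting interval 5.16 to 175) and 14.6 (4.55 to 74.5), with no test. Col14a1 (0 to 7.30), Col19a1 (0 to 3), Col22a1 (0 to 2.62), Col9a2 (0 to 1.75) and Col9a3 (0 to 2.50) stayed near or below the floor, and Col9a1 had no read.

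Type VI collagen, whose Col6a1, Col6a2 and Col6a3 chains form 1 monomer and whose loss causes muscular dystrophies in humans, showed wide differences between the 4 groups. Col6a2 stood at 31.4, 20.3, 27 and 15.2 in WT myoblasts and 483, 309, 458 and 306 in WT myotubes. In KO myoblasts it stood at 417, 248, 576 and 361 and in KO myotubes at 1831, 2019.5, 1108 and 1187. The KO myoblast values spanned those of WT myotubes, and no other pair of groups overlapped. It was 16.3-fold higher in KO than in WT myoblasts (log2 4.02 ± 0.26, adjusted p = 1.81e-10) and 3.9-fold higher in KO than in WT myotubes (log2 1.96 ± 0.26, adjusted p = 1.93e-05). With differentiation it rose 16.1-fold in WT and 3.87-fold in KO, and this difference passed the test (log2 -2.06 ± 0.37, adjusted p = 0.00196). For Col6a1 the values were 77.5, 49.2, 56 and 29.4 in WT myoblasts, 667, 454, 613 and 474 in WT myotubes, 381, 204, 618 and 345 in KO myoblasts and 1956, 2579.8, 998 and 917 in KO myotubes. It was 7.04-fold higher in KO myoblasts (adjusted p = 1.88e-06) and 2.69-fold higher in KO myotubes (adjusted p = 0.00369), rising 10.7-fold in WT and 4.08-fold in KO. Its difference between these rises, log2 -1.39 ± 0.47, did not pass (adjusted p = 0.116). Col6a3, on another chromosome than the Col6a1 and Col6a2 pair, stood at 79.4, 87.8, 64 and 43.7 in WT myoblasts, 603, 173, 199.8 and 219 in WT myotubes, 147, 132, 179.6 and 108 in KO myoblasts and 1641, 867, 1036 and 532 in KO myotubes. Its rise was 3.87-fold in WT (adjusted p = 3.11e-04) and 6.72-fold in KO (adjusted p = 2.67e-06), and it was 3.61-fold higher in KO than in WT myotubes (adjusted p = 4.84e-04). In myoblasts the excess in KO was 2.08-fold (adjusted p = 0.0381), and this call was lost when any 1 of 6 of the 8 myoblast samples was left out (all but WT myoblasts 2 and KO myoblasts 4), with adjusted p of 0.0508 to 0.141. It was also lost without a filter, after quantile normalization and with limma voom (adjusted p 0.0515 to 0.058). The calls of Col6a1 and Col6a2 between KO and WT held without any 1 sample. Col6a4 had 15 reads in KO myotubes against 1 in WT myotubes, Col6a5 had 1 read in all and Col6a6 none.

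The remaining types moved in both directions. Col8a1, a chain of the short-chain network collagen of vessel and corneal membranes, was the chain with the larger fold rise in KO. It stood at 98.7, 88.7, 68 and 61.5 in WT myoblasts, 291, 103, 203 and 142 in WT myotubes, 80.5, 111, 106 and 60.9 in KO myoblasts and 745, 719, 551 and 593 in KO myotubes. Myoblasts of the lines overlapped, and KO myotubes lay above every other sample. The rise was 2.19-fold in WT (adjusted p = 0.00363) and 7.35-fold in KO (adjusted p = 3.09e-08), which differ by log2 1.75 ± 0.37 (adjusted p = 0.00879), and KO exceeded WT myotubes 3.76-fold (adjusted p = 2.26e-05). Its partner chain Col8a2 took the opposite direction between the lines. WT myotubes held 38, 19.8, 25.1 and 17.8 and KO myotubes 9.68, 0, 2.7 and 12 (log2 -2.40 ± 0.61, adjusted p = 0.00658), without overlap, and the log2 value was -1.65 (adjusted p = 0.0134) without KO myotubes 2, the sample at 0, and -1.56 (adjusted p = 0.00173) with a pseudocount of 5. Col8a2 passed the filter only through WT myotubes, the higher group, so this test is not independent of the filter. In myoblasts Col8a2 stood at 9.23, 16.4, 6.0 and 8.02 in WT and 3.5, 4.98, 2.6 and 1.67 in KO, which did not pass (adjusted p = 0.147).

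Col18a1, a multiplexin of basement membranes whose end fragment is endostatin, was lower in KO cells although it rose with differentiation in both lines. It stood at 299.9, 371, 229 and 132 in WT myoblasts, 664, 436, 394 and 388 in WT myotubes, 64.7, 91.3, 71.1 and 79.3 in KO myoblasts and 410.5, 182, 199 and 188 in KO myotubes. It was 3.14-fold lower in KO myoblasts (log2 -1.65 ± 0.28, adjusted p = 2.05e-04), without overlap, and 1.99-fold lower in KO myotubes (log2 -0.99 ± 0.28, adjusted p = 0.0146), where KO myotubes 1 lay within the WT range. The latter call was lost without WT myotubes 1 (adjusted p = 0.0523) and with array weights (0.0502), and with KO myotubes 2 and 4 left out the log2 value was -0.68 (adjusted p = 0.153). Col18a1 rose 1.9-fold in WT (adjusted p = 0.0224), not called without WT myoblasts 3 or 4 or WT myotubes 1 (0.0571 to 0.109), and 3.0-fold in KO (adjusted p = 1.98e-04). Col7a1, the chain of the anchoring fibrils beneath epithelia, took another direction on differentiation. It stood at 40.6, 19.3, 27 and 26.7 in WT myoblasts, 18.1, 18, 20.4 and 18.8 in WT myotubes, 14.9, 8.3, 16.5 and 15.9 in KO myoblasts and 6.78, 0, 1.8 and 0 in KO myotubes. It was the chain that fell with differentiation, in KO (log2 -2.74 ± 0.51, adjusted p = 2.74e-04), and it was lower in KO than in WT myotubes (log2 -3.20 ± 0.51, adjusted p = 1.09e-04). The 2 KO myotube samples at 0 are the 2 shallowest libraries, and without them the log2 values were -1.63 (adjusted p = 0.00445) and -2.09 (adjusted p = 0.00109). Without KO myotubes 1, the highest of the 4, they were -3.36 and -3.81, and with a pseudocount of 5 they were -1.47 and -1.83. After quantile normalization the second was -2.53. In WT cells its change did not pass (adjusted p = 0.491), and the difference between the lines had an adjusted p of 0.0986.

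Transmembrane chains were near the floor in all groups: Col25a1 had 14 reads in WT myotubes (3.45, 0.9, 3.72 and 4.95), none in either myoblast group and 2 in KO myotubes, Col23a1 ranged from 0 to 2.92, Col17a1 from 0 to 3.60 and Col13a1 had 1 read in all. Col10a1, the network collagen of growth cartilage, ranged from 0 to 4.00, Col26a1 from 0 to 2.70, Col28a1 had 1 read and the multiplexin Col15a1 none. The Col25a1 reads gave a ratio of WT to KO myotubes of 5.35 (95% counting interval 1.23 to 48.5). Col10a1 had 8 reads in WT myoblasts and 1 in each of WT myotubes and KO myoblasts, ratios of 8.21 (1.10 to 364) and 8.86 (1.19 to 393). These intervals cover counting error only, and none of these chains was tested.

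Partner chains of 1 molecule did not keep a fixed ratio. The ratios below compare normalized counts of different genes within a sample without a correction for length, so only their change between groups can be read, and they were not tested. Col6a1 counts per Col6a2 count were 2.23 ± 0.26 in WT myoblasts, 1.43 ± 0.09 in WT myotubes, 0.94 ± 0.10 in KO myoblasts and 1.00 ± 0.22 in KO myotubes (SD, n = 4). The lowest WT myoblast ratio, 1.94, lay above the highest of any other group, 1.55. Col6a3 per Col6a1 was 1.36 ± 0.34, 0.52 ± 0.26, 0.41 ± 0.16 and 0.70 ± 0.31 in the same order. Col1a1 per Col1a2 was 2.56 ± 0.68 in WT myoblasts and 4.93 ± 1.27 in WT myotubes, and 1.83 ± 0.39 and 3.44 ± 0.85 in KO, so the type I chains shifted towards Col1a1 in myotubes of both lines. The chains Col3a1 and Col1a1 belong to different molecules that run in the same fibrils. Col3a1 per Col1a1 was 0.22 ± 0.04, 0.30 ± 0.05, 0.21 ± 0.01 and 0.44 ± 0.04, and all KO myotubes (0.39 to 0.49) lay above all WT myotubes (0.24 to 0.35). Col5a3 per Col5a1 was 0.18 ± 0.04, 0.33 ± 0.04, 0.24 ± 0.07 and 0.10 ± 0.05, highest in WT myotubes and lowest in KO myotubes. The head-to-head pair kept closer to 1 ratio, with 0.90 ± 0.08, 0.77 ± 0.12, 0.92 ± 0.20 and 0.79 ± 0.07 Col4a1 counts per Col4a2 count.

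**Figure D4:**
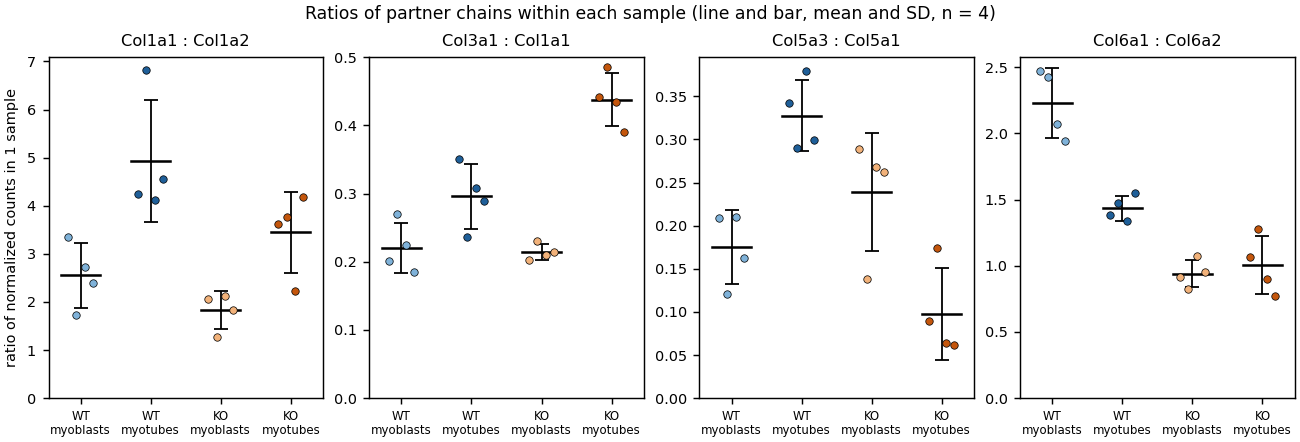
Ratio of normalized counts of 2 collagen genes within each sample (y axes, linear from 0), with the mean and SD of 4 samples a group. The Col6a1 to Col6a2 ratio is highest in WT myoblasts (mean 2.23), the Col3a1 to Col1a1 ratio in KO myotubes (0.44) and the Col5a3 to Col5a1 ratio in WT myotubes (0.33).

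Within a group, the chains of a sample tended to be high or low together. Of the 21 tested chains, 18, 13, 9 and 1 lay above the group mean in WT myoblasts 1 to 4, 20, 0, 12 and 5 in WT myotubes, 18, 4, 17 and 6 in KO myoblasts and 21, 14, 4 and 2 in KO myotubes. The mean log2 deviation of the chains ran from -0.46 in KO myoblasts 2 to 0.63 in KO myotubes 1. The root mean square deviation was larger over the chains than over all tested genes in 13 of the 16 samples. The 21 chains of 1 sample are therefore not 21 independent observations. The proliferation markers Mki67, Top2a, Ccnb1 and Cdk1 summed to 4161 in KO myoblasts 2 against 2362 to 2905 in the other KO myoblasts and to 2732 in WT myotubes 2 against 1668 to 1881, both samples with low collagen counts. In WT myoblasts the highest sum, 3746, was in sample 1, the one with high collagen counts, and in KO myotubes the highest, 1201 against 711 to 945, was also in sample 1, with all 21 chains above the mean. The marker sum thus stood high in 2 samples with low and 2 with high collagen counts. Their part in the deviations was not tested.

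**Figure D5:**
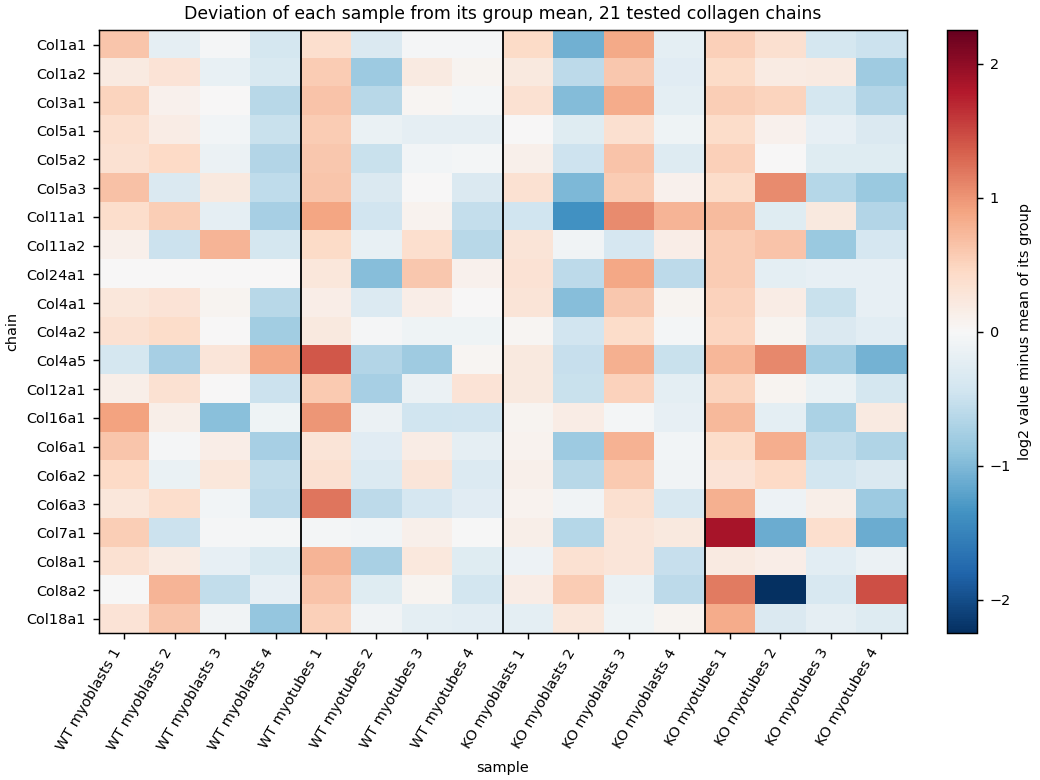
Log2 value of each tested chain minus the mean of its group (colour, red above and blue below) for the 16 samples (columns, 4 groups separated by lines) and 21 chains (rows). Many columns are mostly of 1 colour, red in KO myotubes 1 with 21 of 21 chains above the mean and blue in WT myotubes 2 with 0 of 21.

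Many enzymes and carriers that make and export collagen rose with differentiation in both lines. Of a list of 37 biosynthesis and secretion genes, 33 were tested, and 19 rose and 1 fell in each of WT and KO differentiation (median log2 0.79 and 0.93), against 13.8% and 17.3% of all tested genes called higher and 9.16% and 16.1% called lower. Between the lines 4 were higher and 1 lower in KO myoblasts and 7 higher and 1 lower in KO myotubes (medians 0.27 and 0.19), against 7.26% higher and 8.5% lower of all tested genes in myoblasts and 9.74% and 13.7% in myotubes. P4ha1, a catalytic subunit of prolyl 4-hydroxylase, rose by log2 2.38 ± 0.29 in WT (adjusted p = 3.70e-06) and 2.92 ± 0.29 in KO (adjusted p = 9.89e-08). Adamts2, the protease that removes the N-propeptide of fibrillar procollagens, rose by log2 2.50 ± 0.23 in WT and 1.95 ± 0.23 in KO and was higher in KO at both stages, by 2.19 ± 0.23 in myoblasts (adjusted p = 2.36e-07) and 1.64 ± 0.23 in myotubes (adjusted p = 2.40e-05). Loxl2, a lysyl oxidase that cross-links type IV and fibrillar collagens, was higher in KO by log2 2.39 ± 0.37 in myoblasts (adjusted p = 5.51e-05) and 1.91 ± 0.37 in myotubes (adjusted p = 6.91e-04). Adamts14, a relative of Adamts2, was lower in KO myoblasts (log2 -2.0 ± 0.35, adjusted p = 2.66e-04), and Fkbp14, a prolyl isomerase of the ER, was higher in KO myotubes (log2 1.36 ± 0.26, adjusted p = 6.67e-04).

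Collagen receptors and uptake genes (9 of 13 tested) rose in 7 cases in WT and 8 in KO (background 13.8% and 17.3%), and Cspg4 fell in KO (16.1%). The integrin chain Itga11, a receptor for fibrillar collagen, rose by log2 2.53 ± 0.37 in WT (adjusted p = 5.23e-05), and Mrc2, the endocytic collagen receptor, by 2.14 ± 0.41 in WT and 2.18 ± 0.41 in KO. Itga10 was lower in KO myoblasts (log2 -1.94 ± 0.44, adjusted p = 0.0035) and rose by 3.38 ± 0.44 in KO, and Adgrg6, a receptor that binds type IV collagen, was higher in KO myotubes (log2 1.59 ± 0.32, adjusted p = 9.88e-04). Between the lines 1 receptor gene of 9 was higher and 1 lower at each stage, near the background of 7.26% to 13.7%. Both Itga10 and Adgrg6 had a larger fold rise in KO, 2 of the 9, against 1.97% of all tested genes. Of the basement membrane partners of type IV collagen, 12 of 13 were tested, and 9 rose in each line (background 13.8% in WT and 17.3% in KO). In KO myoblasts 3 of the 12 were lower than in WT (8.5%), and in myotubes 2 were higher and 2 lower, near the background of 9.74% and 13.7%. Lama2, the laminin chain of the muscle fibre basement membrane, stood at 10.7 to 36.0 in WT myoblasts and 0.87 to 1.67 in KO myoblasts (log2 -3.06 ± 0.37, adjusted p = 2.92e-06) and was also lower in KO myotubes (log2 -1.70 ± 0.37, adjusted p = 0.00225). Its KO myoblast values lay under the floor of 3 reads, 2.49 to 2.62 in that group, so the size of the myoblast difference is uncertain. Lamb1 was lower in KO myoblasts (log2 -1.63 ± 0.26, adjusted p = 8.19e-05) and had the larger fold rise in KO. It was 1 of 12 partners called for that difference, against 1.97% of all tested genes.

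Genes of collagen breakdown (13 of 14 listed genes found, 9 tested) rose in 4 cases in WT and 5 in KO (background 13.8% and 17.3%). Between the lines 1 of the 9 was higher and 2 lower in KO myoblasts, against 7.26% and 8.5% of all tested genes. In KO myotubes 2 were higher and 1 lower, against 9.74% and 13.7%. Fam134b, the gene targeted in the KO line, stands in this list and is among the lower calls at each stage. Its log2 value was -2.86 ± 0.26 in KO against WT myoblasts (adjusted p = 2.95e-08) and -2.46 ± 0.26 in myotubes (adjusted p = 9.85e-07). Mmp2, a gelatinase that digests denatured and type IV collagen, was higher in KO at both stages, by log2 1.17 ± 0.21 in myoblasts (adjusted p = 3.43e-04) and 1.65 ± 0.21 in myotubes (adjusted p = 1.12e-05). The lysosomal protease gene Ctsl was lower in KO myoblasts (log2 -1.02 ± 0.29, adjusted p = 0.0195) and rose by 2.20 ± 0.29 in KO, and Timp2, an inhibitor of matrix proteases, was higher in KO myotubes (log2 0.60 ± 0.20, adjusted p = 0.0365). These are transcript levels, and collagen protein, its secretion and its turnover were not measured in these files.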

How the data were processed

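Total RNA from 16 samples was made into libraries by a commercial digital mRNA sequencing service and read from 1 end. According to the study's methods and the submitters' processing notes, the authors trimmed the reads, aligned them with STAR 2.6.0a to mm10 and counted them on genes with HTSeq. The authors deposited log2 values, made from counts divided by 1 size factor per sample with 1 added. Undoing the log2 left 100% of the values at whole multiples of 1 step per sample (tolerance 0.01), and these multiples are the reads. A floor of 3 reads was used, and intervals of read ratios (95%, exact binomial) cover counting error only.

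The 10767 genes with 10 or more normalized counts in 4 or more of the 16 samples were fitted with limma 3.58.1 in R 4.3.3 (lmFit, contrasts.fit, eBayes with trend) on the deposited log2 values, as 4 group means without covariates, with Benjamini-Hochberg adjustment over all genes tested and calls at an adjusted p under 0.05. Fold changes are on the log2(normalized count + 1) scale, which understates changes of low genes, and all groups share 1 spread per gene. The design had assumed linear normalized counts. With deposited log2 values no further log was taken. Apart from limma voom on the recovered reads, an alternative listed below, no fit to counts was run. Fits were tested on simulated data. The collagen chains and all gene lists were chosen with earlier results of these data known.

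Groups come from the sample titles. Chains with values in each sample are the 3 with the largest group mean in each class (beaded filament, multiplexin, network forming and transmembrane apart) and, in each of the 5 comparisons, the 4 called chains with the largest change, 24 in all; from each list the 3 called genes with the largest change in a comparison could be named. Alternatives were a pseudocount of 0.5 or 5, a minimum of 50 or none, scaling to equal totals, median-ratio scaling, quantile normalization, a replicate block, only the 8 samples compared, array weights, limma voom on recovered reads, calls at an adjusted p under 0.01, calls with a log2 change of 1 or more in size, each sample left out in turn and, chosen after seeing the data, both shallowest libraries left out. Promoter windows are from RefSeq on GRCm38.p6 and gene positions from GENCODE M21. The last 500 exonic bases of each of the 21 tested chains overlapped no exon of another gene.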

Additional observations from a re-analysis of the deposited data

Results flagged for a closer look

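In groups of 4, a sample was marked as far from the others when its gap to the nearest divided by the range of the group passed Dixon's 95% critical value for 4 samples, which chance gives in about 1 of 20 groups. Of 84 groups of 4 (21 tested chains in each of the 4 groups), 5 were marked, all with 1 sample above the other 3 and all in sample 1 of a myotube group. In WT myotubes 1 Col5a1 stood at 1565 against 918 to 952 in the others, Col16a1 at 97.6 against 35.3 to 44.1 and Col6a3 at 603.5 against 173 to 219. In KO myotubes 1 Col24a1 stood at 31.0 against 17.5 to 18 and Col18a1 at 410.5 against 182 to 199. All 21 chains were above their group mean in KO myotubes 1 and 20 of 21 in WT myotubes 1, and why these libraries stand high was not tested.

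The change on differentiation differed between the lines by the interaction test of limma for 3 chains. On the log2 scale, as the change in KO minus the change in WT, the difference was -2.40 for Col5a3 (adjusted p = 0.0148), -2.06 for Col6a2 (adjusted p = 0.00196) and 1.75 for Col8a1 (adjusted p = 0.00879). All 3 kept their direction and their call when any 1 sample was left out.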

How the results depend on the processing

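Of the 53 calls of a chain in a comparison, 15 lost significance under at least 1 alternative other than the stricter thresholds, and each of these 15 was also lost without some 1 sample. No called log2 fold change reversed under any alternative. Leaving out 1 sample gave 10 to 16 chains called higher and 0 lower on WT differentiation, 10 to 12 higher and 1 lower on KO differentiation, 4 to 9 higher and 1 to 3 lower in KO against WT myoblasts, 7 to 10 higher and 3 to 5 lower in KO against WT myotubes, and 1 higher and 2 to 3 lower for the interaction. Only 4 chains were called higher in KO myoblasts without WT myoblasts 3 or 4 or KO myoblasts 1 or 3, and 1 lower without WT myoblasts 1 or 2 or KO myoblasts 1 or 2; in KO myotubes 3 were called lower without WT myotubes 1.

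A minimum of 50 left 1 lower in KO myoblasts, 2 lower in KO myotubes and 0 lower on KO differentiation, since low chains were no longer tested, and without a filter 2 were lower on KO differentiation. With quantile normalization 1 was lower in KO myoblasts. Fitting only the 8 samples compared gave 4 lower in KO myoblasts. Array weights gave 13 higher and 4 lower in KO myoblasts, 3 lower in KO myotubes and 4 lower for the interaction. An adjusted p under 0.01 left 9 higher on WT differentiation, 4 higher and 1 lower in KO myoblasts, 2 lower in KO myotubes and 1 lower for the interaction. A pseudocount of 5 gave 2 higher for the interaction. Without both shallowest libraries 4 were lower in KO myoblasts and 3 in KO myotubes. Apart from the minimum and the stricter threshold, the cause of these moves was not tested. Median-ratio scaling gave back the deposited values.

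The changes that reversed had not been called: with array weights the log2 value was -0.0109 for Col11a2 in WT and -0.18 for Col5a3 and -0.0416 for Col4a1 in KO differentiation, and with 1 sample left out it ranged in KO differentiation from -0.12 to 0.52 for Col5a3, -0.0404 to 0.48 for Col4a1 and -0.24 to 1.00 for Col8a2.

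The replicate numbers in the titles are shared between groups, but deviations of samples with the same number correlated by 0.033 on average (-0.22 to 0.37), so they were not taken as pairs. With the number as a replicate block 15 chains were higher on WT differentiation and 9 in KO myoblasts, and the other counts were 11, 1, 2, 9, 5, 1 and 2 as without the block; no call was lost. Chains with a few reads, the 23 below the filter among them, are limited by depth, and a group with 0 reads allows up to 3 reads per library.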
